A study of Mus musculus with 5 samples.

Results

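The genes described here differed in the same direction from the monocyte-dendritic cell progenitor (MDP) in both of its committed descendants, the common dendritic cell progenitor (CDP) and the common monocyte progenitor (cMoP). A gene belonged when its values on the CDP and cMoP arrays lay on the same side of its MDP value and the highest of the 3 progenitor values reached a floor of 6.27, the median of all gene values. Of 19938 named genes, 10544 passed this floor and 4873 of those (46.2%) were members. The value was higher in both committed progenitors for 2275 genes (21.6%) and lower in both for 2598 (24.6%). The rule fixes these directions, so they are descriptions and not findings. It did not use the direction of either monocyte array, the promoters or the length of the genes.

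Total RNA of 5 marrow populations from untreated wild type C57Bl/6 mice was profiled, with 1 array for each. All were sorted as lineage-negative cells carrying CD115, the receptor encoded by Csf1r. MDP were Lin- CD115+ CD117+ CD135+, CDP were Lin- CD115+ CD117int CD135+, and cMoP were Lin- CD115+ CD117+ CD135-. Classical monocytes were Ly6C+ TremL4-, and nonclassical monocytes were Ly6C- TremL4+. With 1 array per population no difference has a replicate check, so no p-value, SD or interval is given and the number of arrays limits every value. How many mice stand behind each array is not stated in the labels. Values are log2, so a difference of 1 is 2-fold. Both differences of a gene share the single MDP array, and an MDP value that was off by itself would move both alike. In sorted populations, fewer cells of a type and less RNA per cell cannot be told apart.

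MDP are marrow progenitors that give rise to monocytes and to dendritic cells. CDP produce the dendritic cell lineages, while cMoP produce monocytes, and both have lost part of the potential of the MDP. As blood progenitors commit, the transcription factors and surface proteins they share with stem cells give way to the products of mature phagocytes, such as adhesion receptors, lysosomal enzymes and the subunits of the phagocyte oxidase. CD117 is encoded by Kit, the receptor for stem cell factor, and CD135 by Flt3, the receptor for Flt3 ligand.

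The arrays followed the gates at the level of RNA. Csf1r lay between 10.03 and 12.21 on all 5 arrays. Flt3 was at 10.75 in MDP, 10.74 in CDP and 6.40 in cMoP. Kit was at 10.11 in MDP, 8.16 in CDP and 9.37 in cMoP, and is itself a member, but the gate on CD117 helped to set its CDP value. Between 9831 and 10167 genes reached the floor on each array. Lineage genes of other marrow cells were mostly under it. Of the 15 neutrophil genes measured, 4 reached the floor in MDP, 6 in CDP and 7 in cMoP, and without S100a8 and S100a9, both members described below, the summed level of the list with the log2 undone was 1141, 772 and 1595. Ly6g, Ltf, Ngp and Retnlg, which mark neutrophils and their granules, were under the floor on all 3. Csf3r, at 8.64, 7.41 and 8.96, and Mmp8, at 7.16, 6.75 and 7.02, were above the floor on all 3. Cxcr2 reached the floor in MDP and cMoP, and Lcn2 in cMoP only, at 8.97. Of 11 B cell genes 3, 5 and 4 reached the floor in MDP, CDP and cMoP. Of 14 genes of T and NK cells 1, 4 and 1 did, in the same order. Of 16 basophil, mast cell and eosinophil genes 4, 4 and 5 did, with Mcpt8 at 8.95, 7.99 and 8.70 and Hdc at 9.09 in cMoP. Of 17 megakaryocyte and erythroid genes 7, 6 and 6 did, among them Nfe2 at 9.96, 9.63 and 10.07 and Tfrc at 9.17, 10.01 and 9.28. Of 15 macrophage genes 2, 3 and 2 did.

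MDP was the array least often set apart from the other progenitors. It lay outside both others in 4873 genes (46.2%), against 7090 (67.2%) for CDP and 6842 (64.9%) for cMoP. At a distance of at least 1 log2 unit from both others, the counts were 53 for MDP, 125 for CDP and 190 for cMoP. For 4167 of the 10544 genes CDP and cMoP lay on opposite sides of MDP. In 1504 the MDP value was equal to that of CDP or cMoP to the last digit. Most shared differences were small. In 1970 members (40.4%) the smaller of both differences, by size, was under 0.1, and its median was 0.12 among the higher and -0.14 among the lower members.

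The balance between directions depends on the scaling of the arrays. Members made up 46.7% higher genes in the deposited scale, 68.4% with each array centred on its median and 67.9% after quantile normalization. Those scalings shifted the median cMoP minus MDP difference over all genes by 0.11 and 0.10. The single genes described below are mainly those that passed 1 log2 unit in both comparisons, with 0.5 as a wider set. Counts for gene lists, gene families and gene spans also take members of any size, so they can depend on the scaling.

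At 1 log2 unit in both comparisons, 24 genes (0.228% of those past the floor) were higher and 29 (0.275%) lower, 53 in all (0.503%). Centring gave 29 higher and 24 lower genes, and quantile normalization 29 and 26. At 0.5 log2 units the counts were 144 (1.37%) higher and 201 (1.91%) lower, 345 in all (3.27%). Each comparison on its own gave more. CDP had 120 genes (1.14%) higher and 110 (1.04%) lower than MDP by 1 log2 unit, and cMoP 147 (1.39%) higher and 148 (1.4%) lower. Just inside the threshold lay Zbtb7b with a smaller difference of 1.002, S100a8 with 1.03 and Hoxa9 with -1.03. Just outside lay Siglecg at 0.9986, Nedd4 at -0.99 and S100a6 at 0.99. The plot of both differences shows these genes at the corners of a dense cloud around 0.

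**Figure D1:**
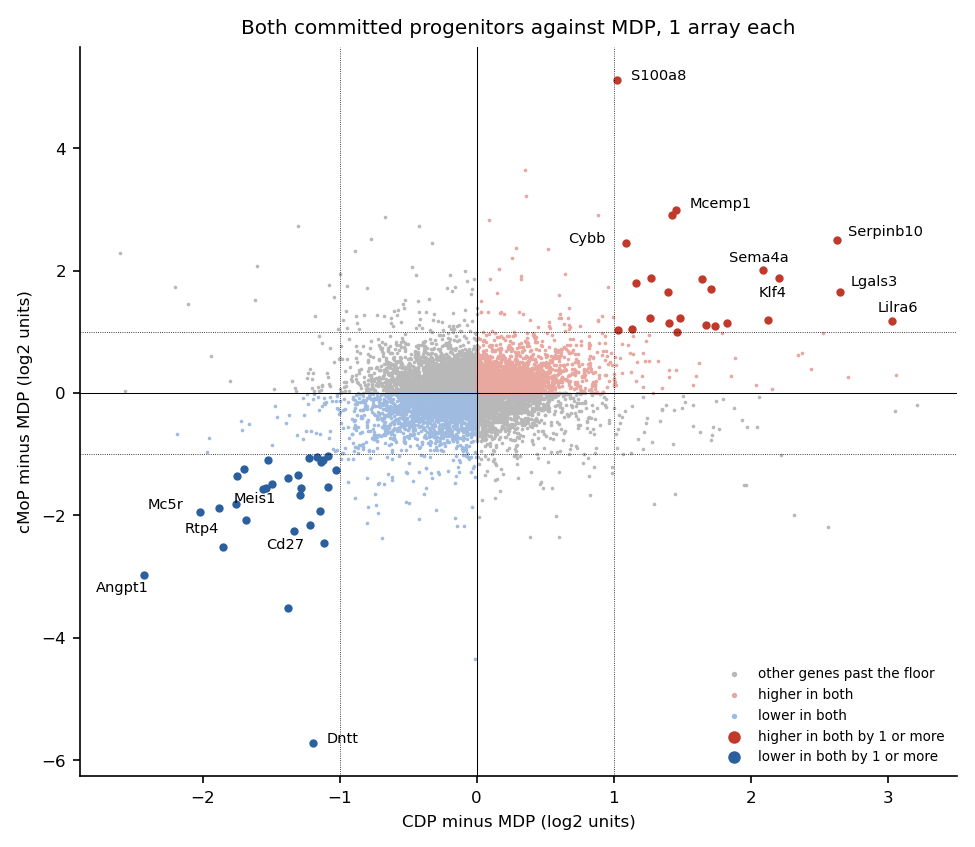
Each point is a gene past the floor, with CDP minus MDP on the x axis and cMoP minus MDP on the y axis, both in log2 units and from 1 array per population. The 24 genes higher and the 29 lower in both by 1 log2 unit or more are drawn large, and S100a8 and Dntt lie farthest out along the cMoP axis.

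Promoter sequences are shown for 4 of these genes, 3 higher and 1 lower, to show the windows in which motifs were searched and the matches found there. They were chosen after the values were seen. Each runs from 250 bases before to 50 after the RefSeq start, on the gene's strand, in build GRCm38.p6, with motif matches in capitals. Klf4 lies at chr4:55532426-55532725 on the minus strand, and the capitals mark the E-box CACGTG bound by factors such as MYC. Pld4 lies at chr12:112760405-112760704 on the plus strand, and the capitals mark the PU.1 motif GAGGAAGT. S100a8 lies at chr3:90668821-90669120 on the plus strand, with the PU.1 motif read on the other strand and then the TATA box TATAAA. Meis1 lies at chr11:19018920-19019219 on the minus strand, with the RUNX motif TGTGGT, then CCAAT, then the ETS motif CCGGAAGT read on the other strand.
Klf4: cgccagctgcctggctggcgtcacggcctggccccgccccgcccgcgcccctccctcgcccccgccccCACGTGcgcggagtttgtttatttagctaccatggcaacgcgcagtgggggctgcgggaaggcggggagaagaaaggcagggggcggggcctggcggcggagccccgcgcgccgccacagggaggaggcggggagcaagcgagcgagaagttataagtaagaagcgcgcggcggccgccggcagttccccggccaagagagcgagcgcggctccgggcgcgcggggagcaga
Pld4: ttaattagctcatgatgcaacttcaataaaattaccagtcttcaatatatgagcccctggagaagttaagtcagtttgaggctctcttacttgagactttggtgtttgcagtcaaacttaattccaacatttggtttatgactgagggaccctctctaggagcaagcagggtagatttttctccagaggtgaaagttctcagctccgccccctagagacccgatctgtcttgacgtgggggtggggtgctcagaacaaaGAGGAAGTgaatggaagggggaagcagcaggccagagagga
S100a8: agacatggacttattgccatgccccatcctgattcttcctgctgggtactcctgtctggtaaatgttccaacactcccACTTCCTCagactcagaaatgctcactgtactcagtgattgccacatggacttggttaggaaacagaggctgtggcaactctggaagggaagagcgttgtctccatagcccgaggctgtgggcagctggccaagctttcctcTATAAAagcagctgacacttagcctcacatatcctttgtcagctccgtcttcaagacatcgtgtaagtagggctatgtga
Meis1: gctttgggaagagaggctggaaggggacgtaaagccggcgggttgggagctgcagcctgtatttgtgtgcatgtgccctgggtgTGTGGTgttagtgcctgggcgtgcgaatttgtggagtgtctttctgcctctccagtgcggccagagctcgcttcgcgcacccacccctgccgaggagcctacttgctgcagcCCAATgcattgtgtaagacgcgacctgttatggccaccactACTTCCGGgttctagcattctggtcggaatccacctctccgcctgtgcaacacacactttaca

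The higher genes included the transcriptional regulators Klf4 and Zbtb7b. Klf4, a zinc finger factor needed for monocyte formation, was at 6.58 in MDP, 8.79 in CDP, 8.46 in cMoP, 9.47 in classical and 9.70 in nonclassical monocytes. It was 4.61-fold higher in CDP than in MDP and 3.68-fold higher in cMoP, so the committed arrays lay closer to each other than to MDP. Zbtb7b, a zinc finger factor known from T cell development, was at 6.29, 7.75, 7.29, 9.17 and 8.89 in the same order, only just above the floor in MDP.

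Of 20 integrin and adhesion genes past the floor, 9 were higher in both (45%, against 21.6% of all genes) and 3 lower. In 8 of the 20, CDP and cMoP lay on opposite sides of MDP, against 4167 of all 10544 genes. The median differences were 0.26 in CDP and 0.07 in cMoP. The 2 genes of this list that passed 1 log2 unit were Itgb2 and Adgre5. Itgb2, the beta chain shared by the leukocyte integrins, was at 7.25 in MDP, 8.99 in CDP, 8.34 in cMoP, 11.22 in classical and 12.21 in nonclassical monocytes. Adgre5, which encodes the adhesion receptor CD97, was at 6.20, 7.62, 9.10, 11.71 and 12.10 in that order. Both genes thus had their lowest value in MDP and their highest in the nonclassical monocyte. Adgre5 was at least 2.56-fold higher in CDP and at least 7.12-fold higher in cMoP, a bound because its MDP value lay under the floor. Sema4a, a membrane semaphorin of immune cells, was at 7.03, 9.12, 9.04, 10.56 and 8.95, and its nonclassical value was no higher than that of the committed progenitors. Lilra6, an immunoglobulin-like receptor, was at 5.51, 8.54, 6.70, 11.002 and 6.69. It was high in CDP and the classical monocyte and between 5.51 and 6.70 on the other arrays.

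Only 9 of the 24 higher genes stood on any list, 4 of them among the monocyte effector and secreted genes and 2 among the lysosomal genes. Lgals3, which encodes galectin-3, was at 7.39 in MDP, 10.04 in CDP, 9.04 in cMoP, 11.84 in classical and 10.58 in nonclassical monocytes. Cybb, the catalytic subunit of the phagocyte oxidase, was at 8.01, 9.11, 10.46, 12.46 and 12.73 in that order. Tgfbi, a secreted matrix protein, was at 7.47, 8.87, 9.13, 11.87 and 9.01. All of these were lowest in MDP, and Tgfbi differed little between the committed progenitors and the nonclassical monocyte. Pld4, a nuclease of single-stranded nucleic acid in endosomes and lysosomes, was at 8.95, 10.43, 10.17, 11.84 and 11.95. The lysosomal hydrolases Ctsh, a cysteine protease, and Naaa, an amidase, were higher than in MDP by 1.40 and 1.83 in CDP and by 1.14 in cMoP for both genes.

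S100a8 met the rule, but its difference was very unequal. It encodes a calcium-binding subunit of calprotectin and is abundant in neutrophils and classical monocytes. Its value was 6.12 in MDP, under the floor, 7.14 in CDP, 11.23 in cMoP, 12.64 in classical and 7.86 in nonclassical monocytes. The difference from MDP was 1.03 in CDP and 5.12 in cMoP. Its partner S100a9 was at 6.69, 7.65, 8.41, 12.07 and 8.18, with a smaller difference of 0.96. Both are also on the neutrophil list, whose other 13 genes summed to 1141 in MDP, 772 in CDP and 1595 in cMoP, and to 5503 in the classical monocyte. The part of neutrophil RNA in these values was not tested.

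The largest smaller difference among the higher genes was that of Serpinb10, a serine protease inhibitor of blood cells. It was at 4.49 in MDP, 7.12 in CDP, 6.98 in cMoP, 10.08 in classical and 9.41 in nonclassical monocytes. Because its MDP value lay under the floor, the fold is given as at least 1.81 in CDP and at least 1.64 in cMoP. Slfn2, a member of the Schlafen family, was at 7.69, 9.40, 9.38, 11.57 and 11.15, nearly equal in both committed progenitors. In 6 of the 24 higher genes the MDP value was under the floor.

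**Figure D2:**
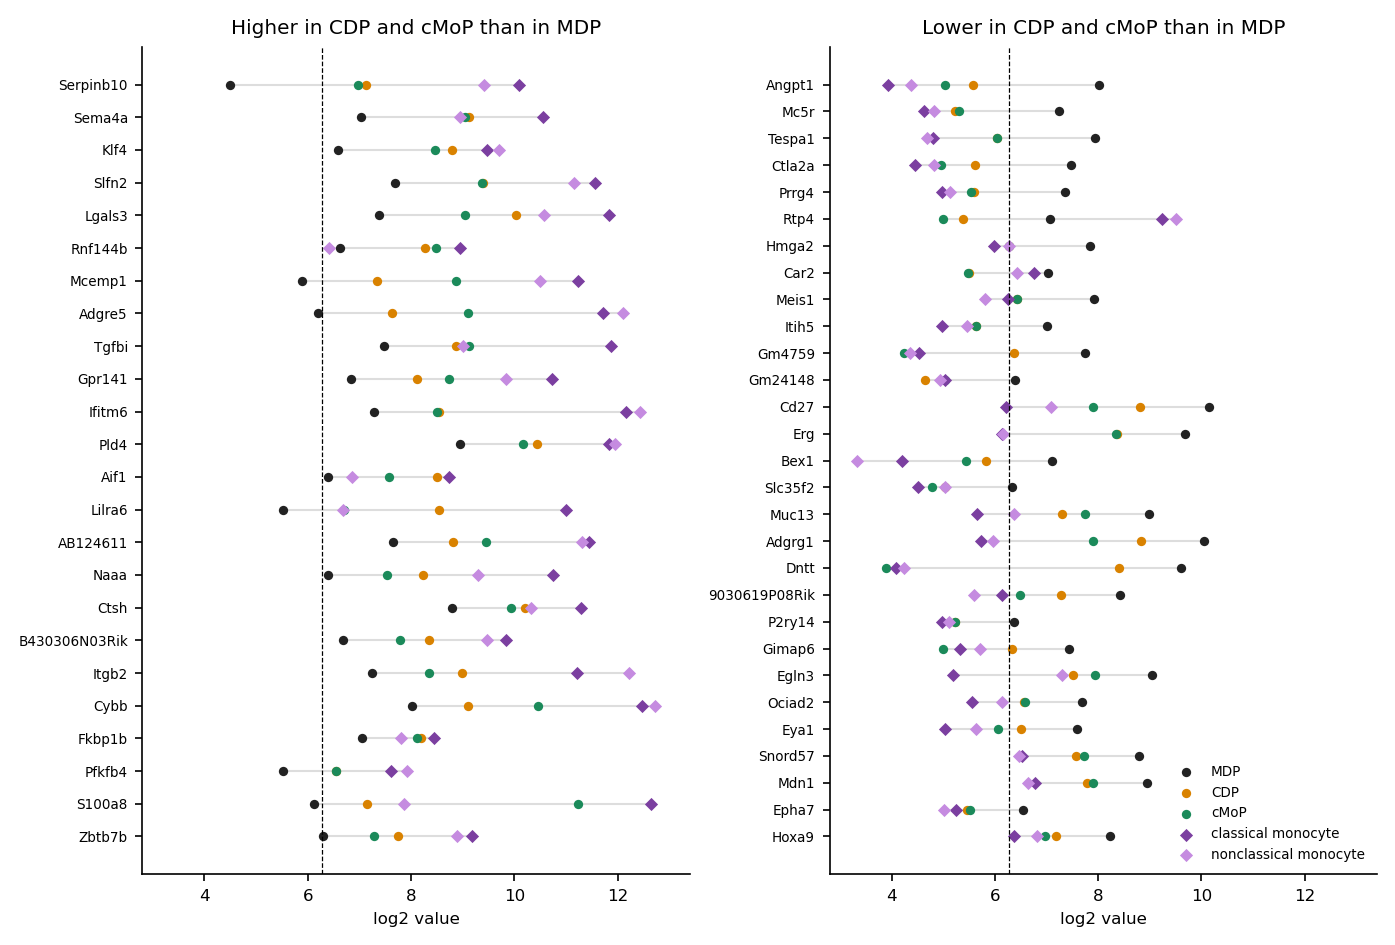
Each row is a gene that passed 1 log2 unit in both comparisons, with its log2 value on each of the 5 arrays and the floor as a dashed line. Where CDP and cMoP are equal, as for Meis1 and Pfkfb4, only the cMoP point is visible. MDP lies at the low end of most rows on the left, with Rnf144b the case where the nonclassical monocyte is lower, and at the high end of most rows on the right, with Rtp4 the exception.

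By the smaller difference, the lower genes were led by Angpt1 at -2.43, Mc5r, a melanocortin receptor, at -1.94, and Tespa1, a signalling protein of developing T cells, at -1.88. Of the stem cell transcription factors, Meis1, Erg and Hoxa9 passed 1 log2 unit in both. Meis1, a homeobox cofactor of the Hox proteins, was at 7.92 in MDP, 6.43 in CDP, 6.43 in cMoP, 6.25 in classical and 5.80 in nonclassical monocytes. It was 2.81-fold lower in each committed progenitor, and the values of CDP and cMoP were equal to the last digit, only just above the floor. Such ties between CDP and cMoP occurred in 779 of all genes past the floor (7.39%). They occurred in 4 of the 29 lower genes, Tespa1 among them, and their origin is not known. Erg, an ETS factor of stem cells and endothelium, was at 9.68, 8.37, 8.34, 6.13 and 6.15. Hoxa9, a homeobox factor, was at 8.22, 7.19, 6.97, 6.36 and 6.82. Meis1, Erg and Hoxa9 were all highest in MDP, and both monocyte arrays lay below the 3 progenitor arrays. Hmga2, a chromatin protein of fetal and early stem cells, was at 7.84, 6.28, 6.28, 5.99 and 6.28.

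Of the stem and progenitor surface genes, Angpt1, Cd27 and Adgrg1 passed 1 log2 unit in both. Angpt1, the ligand of the receptor Tie2, was at 8.01 in MDP, 5.58 in CDP, 5.04 in cMoP, 3.94 in classical and 4.38 in nonclassical monocytes. It reached the floor in MDP only, so its fold is at least 3.34 in both comparisons. Cd27, a receptor of the tumour necrosis factor family, was at 10.15, 8.82, 7.90, 6.22 and 7.08. Adgrg1, an adhesion receptor also known as GPR56, was at 10.05, 8.84, 7.90, 5.74 and 5.97. For both genes CDP lay below MDP, cMoP below CDP, and the classical monocyte lowest.

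Of 14 lymphoid-primed genes past the floor 5 were lower in both (35.7%, against 24.6% of all genes) and 0 higher. Flt3, which encodes the CD135 of the gates, is among the 5, with differences of -0.01 in CDP and -4.35 in cMoP. The median differences of the list were 0.16 in CDP and -1.03 in cMoP. In 9 of the 14, CDP and cMoP lay on opposite sides of MDP, against 4167 of all 10544 genes. The surface glycoprotein Cd7, for one, differed by 3.21 in CDP and -0.20 in cMoP. The 2 genes that passed 1 log2 unit in both were Dntt and Gimap6. Dntt, the terminal transferase of antigen receptor rearrangement, was at 9.61 in MDP, 8.41 in CDP, 3.89 in cMoP, 4.09 in classical and 4.25 in nonclassical monocytes. Gimap6, a GTPase of lymphocytes, was at 7.44, 6.33, 4.99, 5.33 and 5.70. Dntt was thus above the floor in CDP and under it in cMoP, at least 10.1-fold below MDP. In all, 8 of the 53 genes differed between CDP and cMoP by 1 log2 unit or more. Lilra6, Dntt, Gm4759 and Gimap6 were higher in CDP, a direction taken by 2.22% of all genes, and S100a8, Mcemp1, Adgre5 and Cybb were higher in cMoP, taken by 3.2%.

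Rtp4 and Car2 stood apart from the other lower genes. Rtp4, an interferon-induced chaperone of receptors, was at 7.07 in MDP, 5.38 in CDP, 4.99 in cMoP, 9.24 in classical and 9.51 in nonclassical monocytes. Car2, a carbonic anhydrase of erythroid and other cells, was at 7.04, 5.50, 5.49, 6.75 and 6.43. Both monocyte arrays were above both committed progenitors for these genes, although only for Rtp4 were they above MDP too. In 13 of the 29 lower genes both committed values were under the floor, and in 17 at least 1 was, so these folds are bounds.

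Gene lists by role describe how far the shared differences reach. They were written with earlier results of these data known, so their counts are descriptions and not independent support. The shares of all 10544 genes were 21.6% higher and 24.6% lower in both, and in 4167 of them CDP and cMoP lay on opposite sides of MDP. The median differences over all genes were -0.01 for CDP and 0.00 for cMoP. Of 20 stem cell transcription factors that reached the floor, 17 were lower and 0 higher, with medians of -0.50 and -0.61. Those lower by 0.5 or more were Meis1, Erg, Hoxa9, Msi2, Myc, Hoxa5, Hlf, Ikzf2 and Sox4. With centring or quantile normalization 1 was higher and 15 lower. Of 12 stem and progenitor surface genes, 2 were higher and 7 lower, with medians of -0.75 and -0.71. Cd34, a sialomucin of progenitors, was among them at 11.51, 10.20, 10.82, 7.24 and 5.89 in the order MDP, CDP, cMoP, classical and nonclassical monocyte.

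Phagocyte lists leaned the other way. Of 26 monocyte effector and secreted genes, 22 were higher in both (84.6%, against 21.6% of all genes) and 2 lower. Their median differences were 0.67 and 0.62, and 12 were higher by 0.5 or more in both. Of 23 lysosomal genes 14 were higher (60.9%) and 0 lower, with medians of 0.19 and 0.47, and 5 were higher by 0.5 or more in both. In the other 9, CDP and cMoP lay on opposite sides of MDP, against 4167 of all 10544 genes. Of 26 genes of innate sensing 18 were higher (69.2%) and 1 lower, with medians of 0.28 and 0.44. Only 3 of them were higher by 0.5 or more in both, and 7 lay on opposite sides. Examples past 0.5 in both are the lysosomal protease Ctsb, the lysosomal precursors Psap and Grn, the adaptor Myd88 and the receptor Tlr1. Myd88 was at 7.74 in MDP, 8.34 in CDP, 8.42 in cMoP, 9.44 in classical and 9.17 in nonclassical monocytes.

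Of 36 myeloid transcription factors 13 were higher in both (36.1%, against 21.6% of all genes) and 3 lower (8.33%, against 24.6%). In 19 of the 36, CDP and cMoP lay on opposite sides of MDP, against 4167 of all 10544 genes. With centring 16 were higher and 3 lower, but the share of all genes higher in both then rose to 37.9%. After quantile normalization 15 were higher and 2 lower, beside 39.8% of all genes higher. Klf4, Cebpb, Klf6 and Rara passed 0.5 in both. Cebpb, a leucine zipper factor of monocytes, was at 6.99, 7.52, 8.09, 8.53 and 8.98. Primary granule genes split almost wholly, with opposite sides in 13 of 14 and medians of -0.86 in CDP and 0.77 in cMoP. Dendritic cell genes did so in 11 of 13, with medians of 1.72 and -0.56.

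Lists related to growth were shared to different extents. Of 27 ribosome biogenesis genes 15 were lower in both (55.6%) and 0 higher, none by 0.5 in both, and 11 lay on opposite sides. The medians were -0.69 in CDP and -0.04 in cMoP. With centring 11 were lower and 1 higher. Of 20 nucleotide synthesis genes 4 were lower (20%) and 0 higher, and 15 lay on opposite sides. Of 22 DNA replication genes 4 were lower (18.2%) and 2 higher, and 15 lay on opposite sides. The lower shares of the nucleotide synthesis and DNA replication genes were under the 24.6% of all genes.

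Of 15 interferon-stimulated genes 5 were lower (33.3%, against 24.6% of all genes) and 1 higher (6.67%, against 21.6%). In 9 of the 15, CDP and cMoP lay on opposite sides of MDP, and the medians were 0.07 in CDP and -0.42 in cMoP. Rtp4, Xaf1, Ddx58 and Oasl2 passed 0.5, and all had higher values in both monocyte arrays than in MDP. For Rtp4, Ddx58 and Oasl2 both committed values were under the floor.

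**Figure D3:**
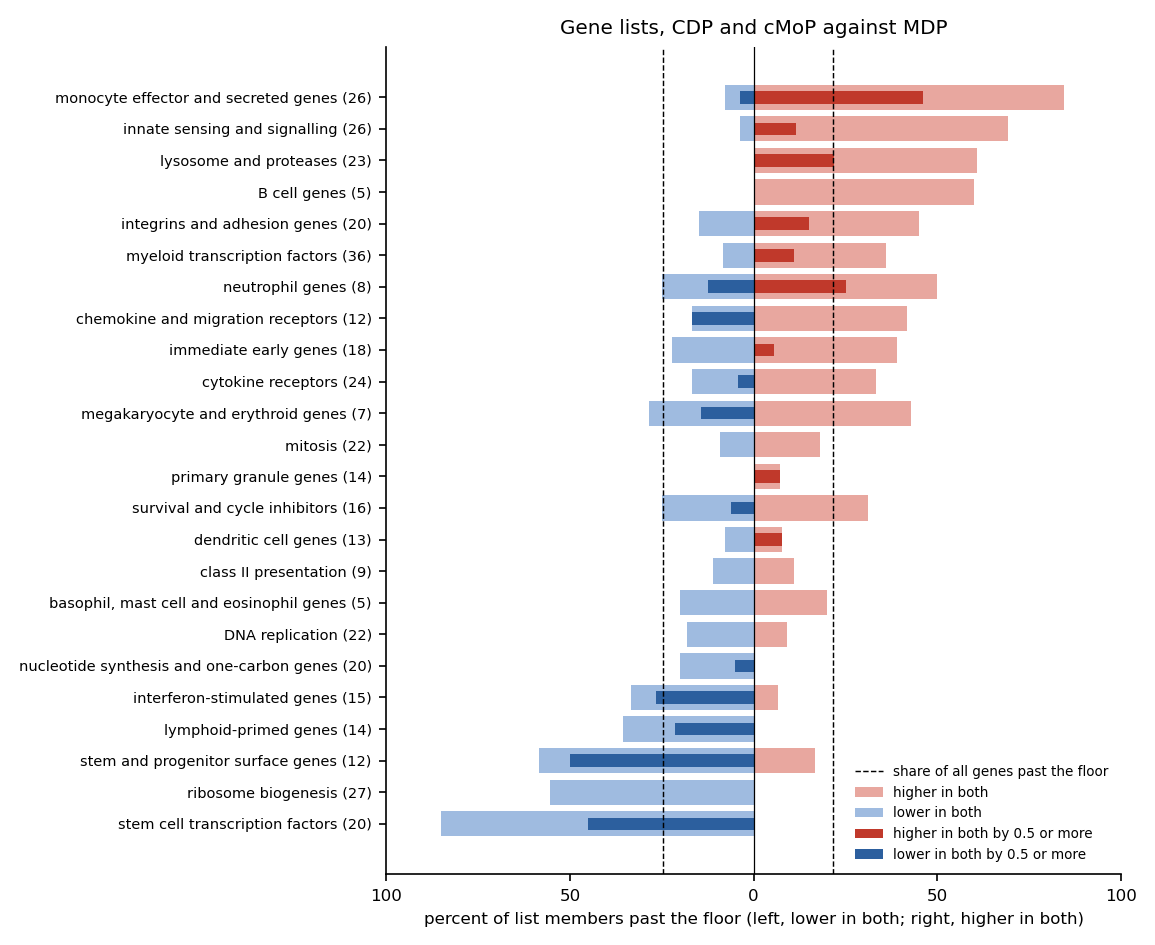
Bars give the percent of each list's genes past the floor that were lower (left) or higher (right) in both committed progenitors than in MDP, with darker bars for 0.5 log2 units or more and the number of genes in parentheses. Dashed lines mark the share of all genes, 24.6% lower and 21.6% higher. Lists with fewer than 5 genes past the floor are not drawn, and the stem cell factors and the monocyte effector genes lie farthest from those lines.

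The monocyte arrays show where these genes stand in later cells. They share the CDP and cMoP arrays with the rule but not its MDP value. The classical monocyte lay above both committed progenitors in 24 of the 24 higher genes (100%), against 29.9% of all genes, and in 131 of the 144 (91%). It lay below both in 23 of the 29 lower genes (79.3%), against 34.2% of all genes, and in 160 of the 201 (79.6%). In 13 of the 29 both committed values were under the floor, so the comparison also ran on genes with both at or above it. There it lay below both in 12 of 12 lower genes and in 122 of 143 of the wider set (85.3%), against 33.9% of 9672 genes so restricted. Nearest to the committed progenitors among the higher genes was Aif1, a calcium-binding protein of phagocytes, where the classical value exceeded the higher committed one by 0.22. Ifitm6, an interferon-induced membrane protein, had the widest gap at 3.61.

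The nonclassical monocyte followed this less often. It lay above both committed progenitors in 17 of 24 higher genes (70.8%), against 30.5% of all genes. It lay below both in 21 of 29 lower genes (72.4%), against 45.4%. With both committed values at or above the floor, it lay below both in 11 of 12 lower genes, against 47.4% of genes so restricted. The 7 higher genes in which it did not lie above both were Tgfbi, S100a8, Sema4a, Fkbp1b, Rnf144b, Lilra6 and Aif1.

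The difference between the monocyte arrays uses none of the progenitor arrays. Its median, nonclassical minus classical, was -0.67 over the 24 higher genes, 0.21 over the 29 lower genes and -0.09 over all genes. The median level of the 29 lower genes was 5.25 in the classical and 5.63 in the nonclassical monocyte, both under the floor. In 8 of the 24 the nonclassical value was lower by 1 log2 unit or more (33.3%, against 9.55% of all genes), and in 0 of the 24 it was higher by that much, against 2.57%. These 8 were S100a8 at -4.79, Lilra6 at -4.31, Tgfbi at -2.85, Rnf144b at -2.55, Aif1 at -1.88, Sema4a at -1.61, Naaa at -1.45 and Lgals3 at -1.26. Among the lower genes, Egln3, an oxygen-sensing hydroxylase, was the 1 with a higher nonclassical value by that much, at 7.29 against 5.19.

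**Figure D4:**
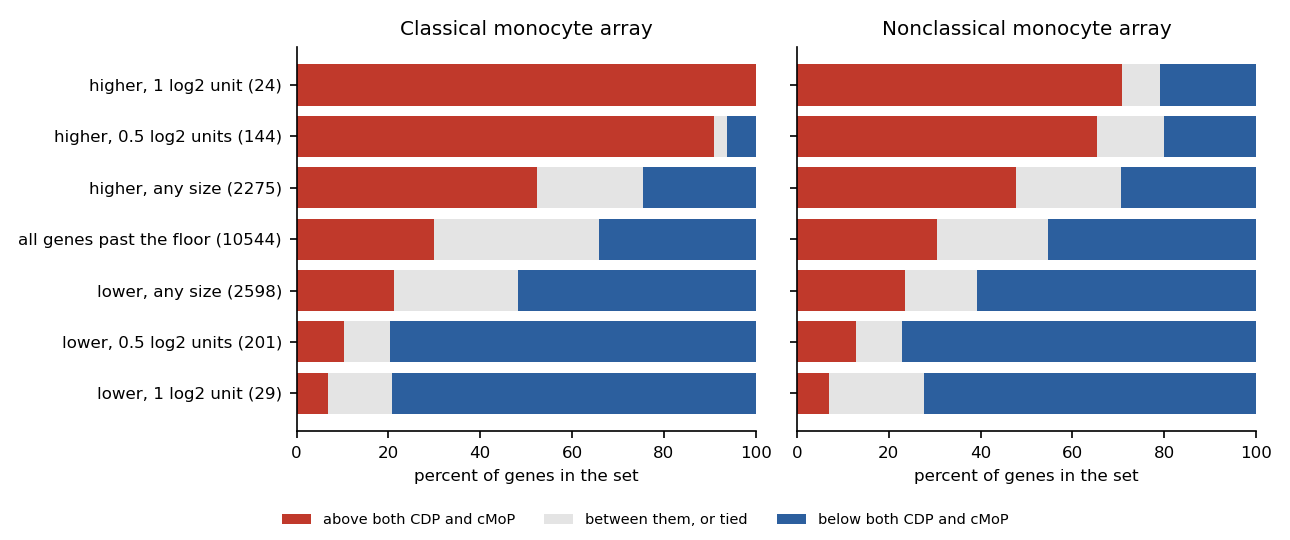
Bars give the percent of genes in each set whose classical (left) or nonclassical (right) monocyte value lay above both CDP and cMoP, below both, or between or tied. For the classical monocyte the part above both runs from 100% of the 24 higher genes to 6.9% of the 29 lower genes, with 29.9% for all genes past the floor.

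Promoters were compared by sequence alone. RefSeq windows matched 21 of the 24 higher genes, 19 of the 29 lower genes and 8494 of all genes past the floor. The median ratio of observed to expected CpG was 0.21 in the higher, 0.30 in the lower and 0.78 in all genes. In the wider set it was 0.54 in the higher and 0.69 in the lower genes, nearer to all genes. The PU.1 motif GAGGAAGT, searched on both strands, was in 4 of the 21 windows of higher genes (19.0%), in 0 of the 19 of lower genes and in 3.3% of all. The 4 genes were S100a8, Pld4, Lilra6 and B430306N03Rik. In the wider set it was in 10 of 116 higher genes (8.62%) and 4 of 147 lower genes (2.72%). The E-box shown in Klf4 was in 1 of the 21 higher windows (4.76%), in 10.5% of lower windows and in 10.5% of all. In the wider set the order was the other way, with 15.5% of higher and 8.84% of lower windows. The GATA motif AGATAA was in 2 of the 21 higher and 4 of the 19 lower windows and in 6.18% of all, but in the wider set in 10.3% of higher and 8.84% of lower windows. RUNX was in 5 of the 21 and 1 of the 19 windows and in 12.4% of all, and in the wider set in 16.4% and 13.6%. The TATA box was in 14.3% of higher, 15.8% of lower and 6.93% of all windows. The ETS motif CCGGAAGT was in 0 of the 21 higher and 1 of the 19 lower windows and in 8.97% of all. In the wider set ISRE was in 6.03% of higher and 3.4% of lower windows, and AP-1 in 10.3% and 6.12%. These are matches of letters in a short window, and no binding was measured here.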

How the data were processed

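The deposited table of the authors holds log2 values for 35556 probe sets on 5 arrays. The base of the logarithm was inferred from the range of 1.59 to 14.2. The normalization and the software were not given in the sources used here, nor was the array's build. Per the labels' protocols, cells were sorted by flow cytometry, RNA was extracted with RNAqueous-Micro and labelled with the Nugen Encore Biotin kit. Genes were named from the platform annotation. Of the probe sets 21789 have 1 symbol, 1621 have several and 12146 are unnamed here, and the probe set with the highest mean was used for 999 genes with several. Promoters and miRNAs are from RefSeq, build GRCm38.p6, which held 19856 of the 19938 genes. No statistical test was possible with 1 array per population. Where the lower value was under the floor, a fold was computed against the floor and given as at least that size. The members and gene lists were chosen with earlier results of these data known.

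The naming rule covered the 15 higher and 15 lower genes with the largest smaller difference, and the 3 nearest the threshold on each side. It also covered up to 6 genes per list and direction past 0.5, and the 5 largest monocyte differences each way. Genes whose CDP and cMoP values differ by 1 log2 unit, and the sort genes, were covered too. The text names only part of the genes under this rule, and that part was chosen after their values were seen. Names outside this rule were chosen after their values were seen. Among them are Fkbp1b, Pfkfb4, B430306N03Rik, Cd7, Hlf, Ikzf2, Sox4, the marker genes of other marrow cells, the families by symbol and the promoters printed. Scripts ran in python 3.11.15 with numpy 2.4.6, pandas 2.3.3 and matplotlib 3.10.9 and were tested on simulated data. Scaling, floor, probe set choice and threshold were varied.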

Additional observations from a re-analysis of the deposited data

How the results depend on the processing

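The balance of directions turned with the scaling. Higher genes were 46.7% of members as deposited, 68.4% with centring and 67.9% after quantile normalization, and at 1 log2 unit the 24 higher and 29 lower genes became 29 and 24 with centring and 29 and 26 after quantile normalization. CDP lay outside both other progenitors more often than cMoP as deposited, and less often with centring (7240 against 8122) and after quantile normalization (7275 against 7750), while MDP did so least often in each setting tried. No gene checked had its smaller difference reversed in sign under the scalings or the mean of probe sets. Zbtb7b, Siglecg, Nedd4 and the names outside the naming rule were not part of this check. No paired analysis was possible because each population has 1 array, and for that reason no replicate could be left out. With both differences at least 0.1, 1285 genes were higher and 1618 lower in both. A threshold of 0.5 gave 144 and 201 genes and a threshold of 1.5 gave 6 and 8. The count of genes higher in both by any size was 4235 after quantile normalization, 4027 with centring, 1083 with the floor at the upper quartile and 5197 with no floor. The upper-quartile floor left 1531 genes lower in both, 11 of them by 1 log2 unit, and in 10 the classical monocyte lay below both committed progenitors. It tests fewer genes. MDP, CDP and cMoP then lay outside both others in 2614, 4046 and 4139 genes. With no floor MDP did so in 8649 and CDP in 11444. All 24 higher genes were retained under both scalings. With both committed progenitors at or above the floor, a restriction added after seeing the data that leaves fewer genes, 12 lower genes had the classical monocyte below both. Of the 29 lower genes 24 were retained with centring and 25 with quantile normalization, where Hoxa9 was among those lost, and Snord57 and Egln3 were lost with centring. The number of arrays and dim signal near the floor limit these values.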

Other observations

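Small nucleolar RNAs, which guide the modification of ribosomal and spliceosomal RNA, were mostly lower in both committed progenitors. This family and the ones below were grouped by symbol after values were seen. Of 46 past the floor 30 were lower and 5 higher, against 24.6% and 21.6% of all genes, with 27 and 6 under centring and 28 and 7 under quantile normalization, and medians of -0.61 in CDP and -0.27 in cMoP. Snord57 was at 8.80 in MDP, 7.58 in CDP, 7.73 in cMoP, 6.52 in classical and 6.46 in nonclassical monocytes, so MDP was highest. Of 11 S100 genes 8 were higher in both and 0 lower under both scalings too. Of 235 Zfp zinc finger genes 108 were lower and 26 higher, but 71 and 69 after quantile normalization, and 73 and 59 with centring. Of 63 ribosomal protein genes 35 were lower and 4 higher, but 10 and 7 with centring and 30 and 12 after quantile normalization. The shares of all genes were then 17.5% lower and 37.9% higher with centring, and 18.8% and 39.8% after quantile normalization.

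Among 81 microRNA genes that reached the floor, 22 (27.2%) had higher and 13 (16%) lower values in both, against 21.6% and 24.6% of all genes. None was higher by 0.5 or more, and the 4 lower by that much are described here. Whether the probes read precursor or mature RNA was not tested. Their mature sequences from RefSeq are shown to compare the seeds, bases 2 to 8, in capitals.
miR-17-5p: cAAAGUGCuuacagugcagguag
miR-18a-5p: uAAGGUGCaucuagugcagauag
miR-221-3p: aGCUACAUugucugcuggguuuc
miR-142a-3p: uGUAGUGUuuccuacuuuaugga

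No seed is shared among these 4. Mir17 and Mir18 lie in the same cluster on chromosome 14. Mir17 was at 8.88 in MDP, 8.09 in CDP, 7.01 in cMoP, 6.58 in classical and 7.76 in nonclassical monocytes. Mir18 was at 8.56, 7.76, 6.43, 5.99 and 6.99 in that order, also highest in MDP. Mir20a, Mir19a, Mir19b-1 and the host transcript Mir17hg were under the floor. Mir221 was at 7.11, 6.39, 6.39, 5.93 and 6.03, and Mir142 at 7.94, 7.32, 6.52, 7.55 and 8.37, where the nonclassical monocyte was highest.

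Genes lower in both spanned more of the genome than those higher in both. The median span was 29.8 kb for the 2593 lower genes with a RefSeq length, 15.4 kb for the 2264 higher genes and 21.0 kb over all genes past the floor. In the wider set at 0.5 log2 units it was 36.0 kb against 14.7 kb. At 1 log2 unit the contrast was smaller, with 25.9 kb for the 29 lower and 17.0 kb for the 24 higher genes. Span was not compared under the other scalings. The part of gene length in the shared differences was not tested.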
